A study of Homo sapiens with 18 samples.

Results

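The 43 genes described here encode the homologous recombination, Fanconi anemia and damage-signalling machinery, and they were taken by gene name from 6 deposited RNA-seq comparisons of U2OS cells, a human osteosarcoma line. All 43 were present in every comparison, out of 26702 genes found in at least 1 of them. The U2OS cells had been transfected with siControl, siANKRA2 or siRFXANK and then given 10 µM Nutlin-3a or its solvent DMSO for 24 h, which gives 6 groups of 3 samples, 18 in all. Nutlin-3a blocks MDM2, the ubiquitin ligase that degrades p53, and so raises p53 without breaking DNA. ANKRA2 and RFXANK both carry ankyrin repeats, and RFXANK works together with transcription factors of the RFX family. All 6 groups share the cell line and an siRNA transfection, and no group was left untransfected. The siRFXANK samples were registered apart from the others, under labels of another form (tissue bone, cell type epithelial cells, genotype wild-type), and have no siControl samples of their own, so that in siRFXANK over siControl the knockdown and the batch cannot be told apart. The same holds for differences of the siRFXANK response from another response, unless the batch acts alike in Nutlin-3a and DMSO. The labels do not say whether the 3 samples of a group are separate cultures, so p-values measure the spread between these samples, which may be technical.

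Homologous recombination repairs a broken chromosome from its sister copy: MRE11, RAD50 and NBN open the break, RBBP8 (CtIP), EXO1 and others cut back 1 strand, BRCA1, PALB2 and BRCA2 prepare the strand for exchange, and BLM with its partners takes the joined molecules apart. The Fanconi pathway answers to DNA strands that are chemically linked to each other. Its core complex attaches ubiquitin to the FANCI-FANCD2 pair, which then recruits nucleases. ATM and ATR are the kinases that report damage, and CHEK1 and CHEK2 pass their signal on. Since recombination needs a sister copy, many of these genes are transcribed mainly in S and G2 phase, and p53 is known to lower such genes through its target CDKN1A (p21), which stops the cell cycle.

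Values per library were not analysed here, so levels are given per group relative to siControl cells in DMSO, and each difference is a deposited log2 fold change with its standard error (SE). The deposited mean normalised count, over all samples, ran from 44.5 for RAD54B to 8501 for PARP1 with a median of 862 for the 43 genes, and 2 of them (RAD54B and FANCB, 99.3) were below 100. How deeply each library was sequenced is unknown. The response to Nutlin-3a in siRFXANK cells was derived from 3 of the tables. A gene is called where its adjusted p is under 0.05, over all genes of that comparison. ANKRA2 was lower after siANKRA2 (-1.81 ± 0.18 in DMSO and -2.58 ± 0.12 in Nutlin-3a, log2 fold change ± SE) and RFXANK after siRFXANK (-2.96 ± 0.10 and -3.16 ± 0.10). The direction of the tables was read from these values, so they do not test the labels. Of the mesenchymal and bone markers COL1A1, VIM, SPARC and FN1 had means between 13146 and 64042. The others of that list were lower: CDH2 had 5098, RUNX2 454, ALPL 148 and COL1A2 33.2. Of the epithelial markers KRT8 and KRT18 were also high, at 21456 and 12960.4, while CLDN4 had 599 and EPCAM 161. CDH1 had 32.9, ESRP1 7.77, CDH3 2.80 and KRT19 1.67, and of 5 leukocyte markers none was above 3.81.

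Upon Nutlin-3a treatment of siControl cells, most of the recombination and Fanconi machinery fell together. Of the 43 genes, 37 fell, 1 rose and 5 were not called, while 21.2% of all 25909 genes tested were called lower and 21.9% higher. The median log2 fold change of the 43 was -1.49, against 0.02 over all genes. Among the 37, 27 fell by at least 1 on the log2 scale and 9 by at least 2, that is to between 18.2% (EXO1) and 25% (BRCA1) of the DMSO level. Shares of all genes with falls of at least 1 or 2 were not counted.

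In the BRCA core all 5 genes fell. BRIP1, the helicase bound to BRCA1, fell to 22.9% of its DMSO level (-2.13 ± 0.08), BRCA1 and BRCA2 to 25% and 24.9%, and BARD1, the partner that completes the BRCA1 ubiquitin ligase, to 25.5%. PALB2, which bridges BRCA1 and BRCA2, fell to 80.6% only (-0.31 ± 0.07, adjusted p = 3.39e-05), and its 95% interval of -0.45 to -0.17 does not meet those of the other 4. The strand exchange helpers split into genes with large falls and genes without. RAD54L, a motor protein that drives strand invasion, reached 19.3% of its DMSO level (-2.37 ± 0.07, adjusted p = 2.70e-238), and RAD51AP1, which stimulates strand exchange, reached 22.5% (-2.15 ± 0.06). RAD54B (-2.12 ± 0.25), XRCC2 (-2.07 ± 0.13) and XRCC3 (-1.77 ± 0.07) also fell. RAD51C, which forms complexes with XRCC2 and XRCC3, was the 1 gene of the 43 that rose (chr17:58692573-58735611, plus strand, GRCh38), to 113% (0.17 ± 0.04, adjusted p = 1.38e-04), and RAD51D was not called (-0.03 ± 0.08).

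Among the end resection genes, EXO1, the exonuclease that cuts back the 5′ strand over long distances, showed the deepest fall of all 43 (gene at chr1:241847967-241895148, GENCODE 29 on GRCh38), to 18.2% of its DMSO level (-2.46 ± 0.08, adjusted p = 1.03e-192). MRE11, the nuclease of the break-binding complex, fell to 46.8% and RBBP8, its cofactor, to 50.8%. The other 2 subunits of that complex did not follow MRE11: NBN stood at 88% (-0.19 ± 0.06, called) and RAD50 at 116% (0.22 ± 0.14, not called). RAD50 (chr5:132556019-132646344, GRCh38) shares sequence with its neighbour: 90.6% of the 31-base stretches of its longest transcript also occur in other genes, mostly in the overlapping gene AC116366.3. The same holds for 79% of those of RAD54B, in FSBP, and 53.6% of those of XRCC3, in KLC1 on the opposite strand, so the counts of these 3 genes depend on how shared reads were assigned. In the complex that dissolves joined molecules all 4 genes fell: the helicase BLM to 22.1% (-2.18 ± 0.08, adjusted p = 1.65e-164), RMI2 to 27%, RMI1 to 35.7% and the topoisomerase TOP3A to 56.6%.

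In the Fanconi core and its ubiquitin enzymes 8 of 9 genes fell, from FANCB (-1.87 ± 0.18) and the ubiquitin-conjugating enzyme UBE2T (-1.76 ± 0.07) to the ubiquitin ligase subunit FANCL (-0.83 ± 0.08). The exception was FANCF, an adaptor of the core, which was not called at 0.12 ± 0.08. FANCD2 and FANCI, the pair that the core complex modifies, fell to 25% and 25.6% with intervals that overlap (-2.14 to -1.86 and -2.08 to -1.85). The nucleases fell unequally. EME1, the regulatory subunit of the MUS81 nuclease, fell to 28.5% (-1.81 ± 0.08), whereas its catalytic partner MUS81 (-0.19 ± 0.07), the scaffold SLX4 (-0.24 ± 0.09) and FAN1 (-0.27 ± 0.09) lay between 82.7% and 87.8%, all called. The damage kinases likewise split by their place in the cascade: the effectors CHEK1 (-1.77 ± 0.05) and CHEK2 (-1.29 ± 0.07) fell, and the apical kinases ATM (0.11 ± 0.11) and ATR (-0.14 ± 0.10) were not called. Of the other repair routes, POLQ, the polymerase of microhomology-mediated joining, fell to 25.7%, the mismatch repair gene MSH6 to 40.6% and PARP1, which had the highest mean per kilobase of exon of the 43 (1186 normalised counts), to 69.6%.

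**Figure D1:**
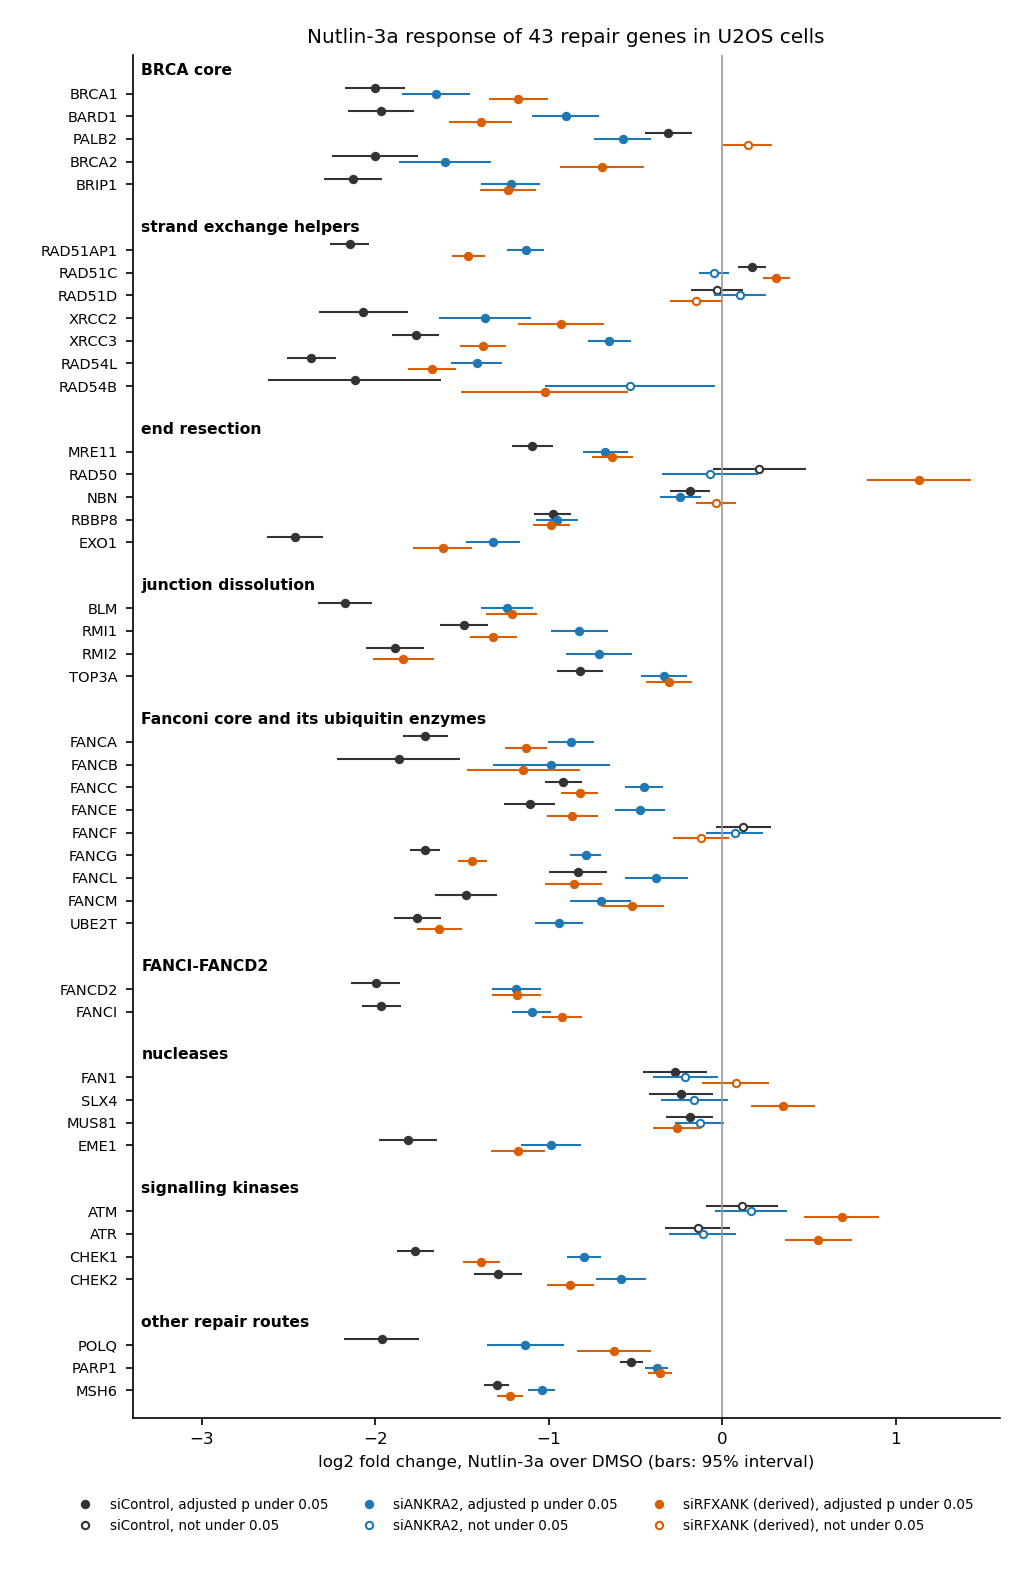
Log2 fold change of Nutlin-3a over DMSO (x axis) for each of the 43 genes (rows, by role) in siControl, siANKRA2 and siRFXANK cells, with 95% intervals; filled points have an adjusted p under 0.05. Black siControl points lie farthest left for most genes, with EXO1 at -2.46, while RAD51D and FANCF stay near 0 in all 3 responses.

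The promoters of these genes were searched for short sequence motifs because the genes moved together. Windows from 250 bases before to 50 bases after the start, as RefSeq places it on GRCh38.p14, were at hand for 39 of the 43 genes. E2F factors, which switch on S phase genes, bind variants of TTCCCGC or TTGGCGC or TTTCGCG or TTCGCGC, and at least 1 of these on either strand was found in 23 of the 39 genes (59%), in 20.7% of the tested genes with a window and in 11.7% of all 35116 windows. Among the genes that fell by at least 1 in siControl cells the motif was present in 17 of 24 (70.8%), and among the other members in 6 of 15 (40%). For comparison, 19 of 22 S phase genes (86.4%), 2 of 16 genes of G2 and mitosis (12.5%) and 5 of 11 nucleotide excision repair genes (45.5%) held it. The CHR element of mitotic genes (TTTGAA or TTCGAA) was rare at 5 of 39 (12.8%, against 16.1% of tested genes), and CCAAT boxes were found in 18 of 39 (46.2%, against 42.4%). CCAAT boxes were split as the E2F-like motif was. They were present in 14 of 24 genes that fell by at least 1 (58.3%) and in 4 of 15 other members (26.7%). A match is a description of letters, not a binding site.

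The 150 bases before the start are shown for RAD54L, BLM and BRIP1, 3 genes with deep falls, and for RAD51C, the gene that rose. Capitals mark E2F-like matches (TTCCCGC or its reverse GCGGGAA here) and CCAAT boxes (CCAAT or its reverse ATTGG).
RAD54L, chr1:46247538-46247687, plus strand: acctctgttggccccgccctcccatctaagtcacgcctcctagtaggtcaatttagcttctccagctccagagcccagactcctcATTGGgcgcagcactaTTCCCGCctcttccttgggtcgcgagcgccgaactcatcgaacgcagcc
BLM, chr15:90717196-90717345, plus strand: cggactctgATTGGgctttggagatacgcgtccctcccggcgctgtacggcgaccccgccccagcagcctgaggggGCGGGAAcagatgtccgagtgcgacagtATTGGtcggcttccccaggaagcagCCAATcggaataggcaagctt
BRIP1, chr17:61863529-61863678, minus strand: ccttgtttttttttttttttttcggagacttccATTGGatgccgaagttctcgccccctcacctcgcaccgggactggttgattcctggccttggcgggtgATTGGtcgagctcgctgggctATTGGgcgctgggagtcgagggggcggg
RAD51C, chr17:58692423-58692572, plus strand: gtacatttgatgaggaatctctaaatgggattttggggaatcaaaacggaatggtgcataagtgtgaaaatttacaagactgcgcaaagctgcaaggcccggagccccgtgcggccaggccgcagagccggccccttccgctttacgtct
RAD54L carries 1 E2F-like match, 49 bases before the start, next to a CCAAT box at 65 bases. A further CCAAT box of RAD54L spans the start. BLM has a match at 74 bases before the start and 3 CCAAT boxes, and 19 of its 150 printed bases lie in annotated exons. BRIP1 shows 3 CCAAT boxes. Outside the printed stretch, after the start, lie the E2F-like match of BRIP1 (bases 3 to 9) and 2 more of BLM (bases 4 to 10 and 23 to 29). RAD51C holds none of these letters in its window.

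In siANKRA2 cells the fall from DMSO to Nutlin-3a remained but was smaller, and it began from a lower level. Relative to siControl cells in DMSO, the median log2 level of the 43 was -0.53 in siANKRA2 with DMSO. With Nutlin-3a the medians lay close together, at -1.43 in siANKRA2 and -1.49 in siControl cells. In siANKRA2 cells 33 of the 43 genes fell upon Nutlin-3a treatment and none rose, also at an unadjusted p under 0.05, with 10 not called by the submitters' DESeq2 test, against 17% of all genes called lower and 15.5% higher, and the median was -0.71. Only 12 genes reached a fall of 1 on the log2 scale, against 27 in siControl cells. The share of all genes with a fall of that size was not counted. The deepest were BRCA1 (-1.65 ± 0.10, adjusted p = 1.21e-59), BRCA2 (-1.60 ± 0.14, adjusted p = 1.81e-30) and RAD54L (-1.42 ± 0.07, adjusted p = 4.14e-79). When the responses themselves were compared, with their difference divided by its SE and read against a normal distribution, the response was higher (a smaller fall) in siANKRA2 than in siControl cells for 30 genes and lower for 1 (median difference 0.66), whereas 11.4% of all genes were called higher and 12.5% lower in this difference.

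The response difference was largest for RAD54B (1.59 ± 0.36, adjusted p = 8.67e-05), RMI2 (1.18 ± 0.13, adjusted p = 3.62e-18) and EXO1 (1.14 ± 0.11, adjusted p = 2.02e-21), and XRCC3 (1.12 ± 0.09) and BARD1 (1.07 ± 0.14) were close to them. All 4 genes of the BLM complex, 8 of 9 Fanconi core genes and both FANCI and FANCD2 were among the 30. The BRCA core was uneven: BARD1 and BRIP1 (0.91 ± 0.12) were called with large differences, BRCA1 only 0.35 ± 0.13 (adjusted p = 0.0388), and BRCA2 (0.40 ± 0.19, 95% interval 0.04 to 0.77) and PALB2 (-0.26 ± 0.11) were not called. RBBP8 fell to 51.7% of its DMSO level in siANKRA2 and 50.8% in siControl cells, a difference of 0.02 ± 0.08 with an interval of -0.14 to 0.19. RAD51C was the gene with the opposite sign (-0.22 ± 0.06, adjusted p = 0.00216): its rise of 0.17 in siControl cells stood beside -0.05 ± 0.04, not called, in siANKRA2 cells.

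Most of the 43 genes were also lower after siANKRA2 without Nutlin-3a. These values share the siControl and siANKRA2 samples in DMSO with the responses above and are no independent support for them. In DMSO, 35 of the 43 genes were lower in siANKRA2 than in siControl cells and 1 was higher (median -0.53, against 24.5% of all genes called lower and 24.3% higher), and the lowest were RMI2 (-1.67 ± 0.08, adjusted p = 3.90e-88), BRCA1 (-1.29 ± 0.09, adjusted p = 2.89e-49) and RMI1 (-1.21 ± 0.07, adjusted p = 1.97e-68). ATM was the gene that was higher (0.30 ± 0.11, adjusted p = 0.00968). PARP1 was lower by a small amount (-0.08 ± 0.03, adjusted p = 0.0326), a sign that turned to 0.014 once genes of like coding length were centred on 0. In Nutlin-3a, 14 genes were higher in siANKRA2 and 15 lower (median 0.06, with 24.6% and 25.5% of all genes). The highest were XRCC3 (0.96 ± 0.07, adjusted p = 1.86e-40), CHEK1 (0.73 ± 0.06, adjusted p = 3.13e-34) and EXO1 (0.63 ± 0.09, adjusted p = 6.17e-12), and the lowest PALB2 (-1.04 ± 0.08, adjusted p = 4.45e-37), RBBP8 (-0.99 ± 0.06, adjusted p = 3.97e-55) and BRCA1 (-0.94 ± 0.10, adjusted p = 3.85e-19). By these calls, 10 genes were lower than siControl in DMSO and higher in Nutlin-3a, namely RAD51AP1, XRCC3, EXO1, BLM, FANCA, FANCE, FANCM, FANCD2, FANCI and CHEK1 (FANCM was not called in DMSO, at -0.13, with genes of like coding length centred on 0). 13 genes were lower at both, among them BRCA1, BRCA2, PALB2, RBBP8, RMI1, RMI2, MRE11, SLX4 and MSH6. The share of all genes with either pair of calls was not counted, so neither set is shown to be particular to these genes.

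BRCA1 shows the second pattern in full: relative to siControl cells in DMSO, its log2 level was -2.003 in siControl with Nutlin-3a, -1.29 in siANKRA2 with DMSO, -2.94 in siANKRA2 with Nutlin-3a, -0.23 in siRFXANK with DMSO and -1.41 in siRFXANK with Nutlin-3a. Its level with siANKRA2 and Nutlin-3a together was the lowest relative level of any of the 43 genes in any group. EXO1 shows the first pattern, with -2.46, -0.51, -1.83, -1.02 and -2.63 in the same order, so that Nutlin-3a brought it less far down with siANKRA2 than with siControl. Over the 43 genes, siControl cells in DMSO held the highest level for 31 genes, and the lowest level was found in siControl with Nutlin-3a for 20 genes, in siANKRA2 with Nutlin-3a for 14 and in one of the siRFXANK groups for the other 9. This order ranks group levels and was not tested between neighbours.

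**Figure D2:**
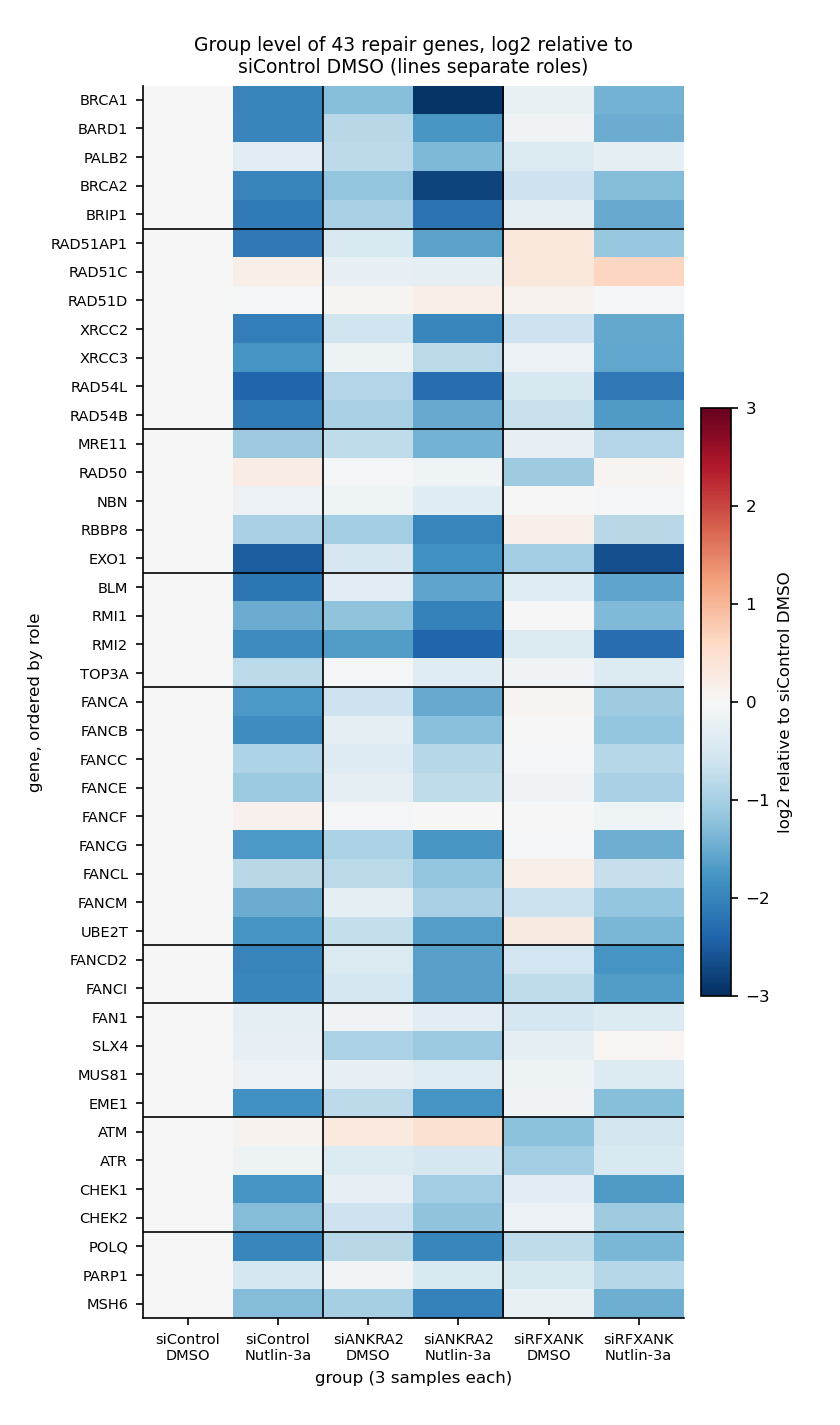
Log2 level of each gene (rows, by role) in the 6 groups (columns, 3 samples each) relative to siControl cells in DMSO, which are 0 by construction. The Nutlin-3a columns are blue for most rows, darkest for BRCA1 in siANKRA2 with Nutlin-3a at -2.94.

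In siRFXANK cells the derived response to Nutlin-3a was again a fall for most of the machinery: 33 genes fell, 5 rose and 5 were not called (median -0.92), with 22.5% of all genes called lower and 22.8% higher. RMI2 (-1.84 ± 0.09, adjusted p = 2.63e-91), RAD54L (-1.67 ± 0.07, adjusted p = 1.43e-121) and UBE2T (-1.63 ± 0.07, adjusted p = 2.70e-136) fell deepest. The 5 genes that rose were RAD50 (1.14 ± 0.15, adjusted p = 6.03e-13), ATM (0.69 ± 0.11, adjusted p = 2.04e-09), ATR (0.55 ± 0.10, adjusted p = 8.91e-08), RAD51C (0.31 ± 0.04) and SLX4 (0.35 ± 0.09, but -0.16 once genes of like coding length were centred on 0). 31 genes fell in all 3 responses, and RAD51C, RAD51D, RAD50, FANCF, ATM and ATR fell in none. The share of all genes that fell in all 3 was not counted, but it is at most the 17% that fell in siANKRA2 cells.

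Compared with siControl, the response was higher in siRFXANK cells for 30 genes and lower for none (25 and 1 with genes of like coding length centred on 0), at a median difference of 0.51, while 11.6% of all genes were called higher and 9.64% lower by the same normal test. At an unadjusted p under 0.05, the difference was lower for 1 gene, FANCF (-0.24 ± 0.12). POLQ (1.34 ± 0.16, adjusted p = 1.25e-15), BRCA2 (1.31 ± 0.18, adjusted p = 1.28e-11) and XRCC2 (1.14 ± 0.18, adjusted p = 2.11e-08) differed most, and all 5 BRCA core genes and all 4 kinases were among the 30. RMI2 (0.05 ± 0.12, interval -0.19 to 0.29), FANCL (-0.02 ± 0.12) and RBBP8 (-0.01 ± 0.08) were not called. This comparison shares its siControl samples with that of siANKRA2, so the values of both are given side by side without an overlap.

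Several comparisons moved with the length of a gene. Over 11318 protein-coding genes with a mean of at least 100, the median of siRFXANK over siControl in DMSO went from 0.18 in the shortest 20% of genes by coding length to -0.25 in the longest, and in Nutlin-3a from 0.03 to 0.00. The median derived response therefore went from -0.18 to 0.29. The response went from -0.04 to 0.05 in siControl cells and from 0.02 to -0.02 in siANKRA2 cells. siANKRA2 over siControl also stepped down with length, in Nutlin-3a (0.16 to -0.19) as well as in DMSO (0.09 to -0.13). The genes that rose in siRFXANK cells include long ones: ATM has a coding length of 9168 bases, ATR of 7932, SLX4 of 5502 and RAD50 of 3936, but RAD51C of 1128. With the median of genes of like length set to 0, an alternative chosen after the trend was seen, RAD50 (0.86) and RAD51C (0.40) were still called higher, whereas ATM (0.18, adjusted p = 0.144) and ATR (0.05, adjusted p = 0.704) were not called and SLX4 turned to -0.16. The response differences of POLQ (0.90), BRCA2 (0.87) and XRCC2 (1.22) from siControl remained called, and those of FANCB, FAN1, SLX4, ATM, ATR and PARP1 did not. Newly called were RAD51C, higher (0.18), and MSH6, lower (-0.18, adjusted p = 0.00387, beside 0.08 without centring). In siControl cells ATR became called lower (-0.25), and between siANKRA2 and siControl the response difference of BRCA2 became called (0.50). What sets the trend with length was not tested.

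**Figure D3:**
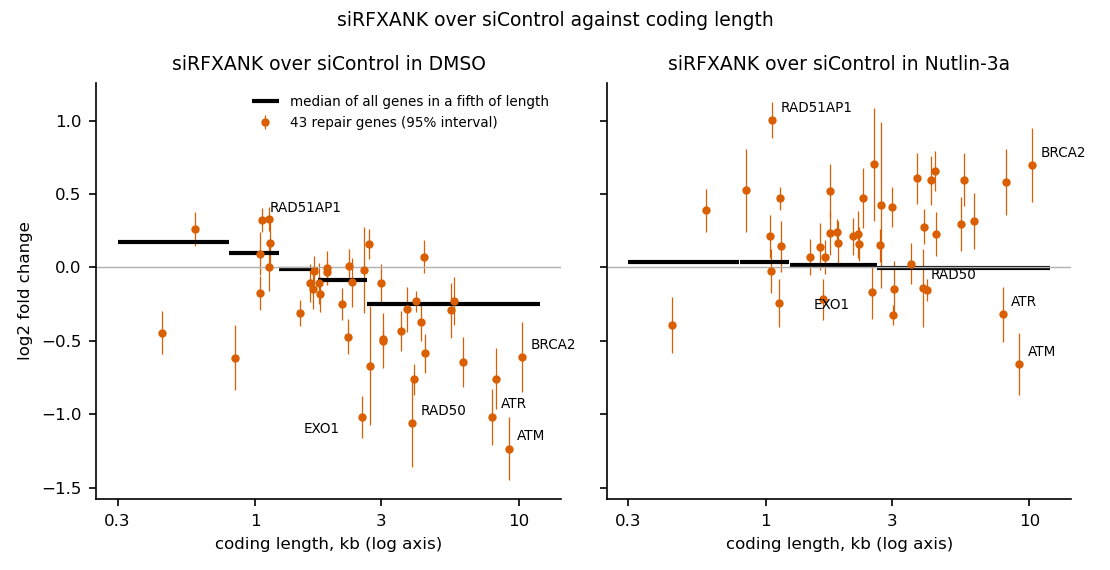
Log2 fold change of siRFXANK over siControl (y axis) against coding length (x axis, log scale) for the 43 genes with 95% intervals, in DMSO (left) and Nutlin-3a (right); black bars are medians of all protein-coding genes in 5 classes of coding length, with the first and last bar cut at the axis. The bars step down from 0.18 to -0.25 in DMSO and stay near 0 in Nutlin-3a.

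In DMSO, 25 of the 43 genes were lower in siRFXANK than in siControl cells and 4 higher (median -0.23; 21.2% and 20.9% of all genes). ATM (-1.24 ± 0.11, adjusted p = 1.97e-28), RAD50 (-1.06 ± 0.15, adjusted p = 2.87e-11) and EXO1 (-1.02 ± 0.07, adjusted p = 6.53e-42) were lowest, and RAD51C (0.33 ± 0.04, adjusted p = 1.13e-14), RAD51AP1 (0.32 ± 0.04, adjusted p = 1.75e-13) and UBE2T (0.26 ± 0.06, adjusted p = 3.56e-05) highest, with coding lengths of 1128, 1056 and 591 bases. BRCA1 was called lower in DMSO (-0.23 ± 0.08), but 0.23 with genes of like length centred on 0, where it was called higher, so its direction depends on this choice. In Nutlin-3a, 25 genes were higher and 7 lower (median 0.23; 19.8% and 19.6% of all genes), where the trend with length was nearly flat. RAD51AP1 (1.004 ± 0.06, adjusted p = 2.13e-55), FANCB (0.70 ± 0.20, adjusted p = 0.00131) and BRCA2 (0.70 ± 0.13, adjusted p = 4.24e-07) were highest, and ATM (-0.66 ± 0.11, adjusted p = 5.09e-09), RMI2 (-0.40 ± 0.10, adjusted p = 2.04e-04) and PARP1 (-0.32 ± 0.04, adjusted p = 6.81e-19) lowest. 14 genes were lower in DMSO and higher in Nutlin-3a, among them BRCA2, BRIP1, XRCC2, BLM, FANCD2, FANCI and POLQ. The share of all genes with this pair of calls was not counted. With genes of like length centred on 0, BRCA2 (-0.16), BRIP1 (-0.04) and BLM (-0.13) were no longer called lower in DMSO, nor UBE2T (0.09) higher, whereas XRCC2, FANCD2, FANCI and POLQ remained called on both sides.

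The siRFXANK and siANKRA2 responses differed from each other. Knockdown and batch cannot be told apart in this difference, unless the batch acts alike in Nutlin-3a and DMSO. The difference rose with coding length, at a rank correlation of 0.66 over the 43 genes and 0.44 over 11318 protein-coding genes. In the direct test of the siRFXANK against the siANKRA2 response, a comparison without shared samples that was added after the other values were seen, the siRFXANK response was lower for 16 genes and higher for 10, with 14.7% and 17.7% of all genes called. RMI2 (-1.13 ± 0.13, adjusted p = 7.22e-16), XRCC3 (-0.73 ± 0.09, adjusted p = 7.78e-14) and UBE2T (-0.69 ± 0.10, adjusted p = 2.12e-11) stood at the negative end, with BARD1 (-0.49 ± 0.14), CHEK1 (-0.59 ± 0.07) and FANCG (-0.65 ± 0.06). At the positive end were RAD50 (1.21 ± 0.21, adjusted p = 8.88e-08), BRCA2 (0.91 ± 0.18, adjusted p = 7.89e-06) and PALB2 (0.72 ± 0.11, adjusted p = 1.67e-09). 6 of 9 Fanconi core genes were called lower and 3 were not called. In the BRCA core BRCA2, PALB2 and BRCA1 (0.48 ± 0.13, but -0.057 with genes of like coding length centred on 0) were called higher, and BARD1 lower. BRIP1 (-0.02 ± 0.12), BLM (0.03 ± 0.11) and FANCD2 (0.00 ± 0.10) were not called, with intervals of the difference of -0.25 to 0.22, -0.18 to 0.24 and -0.20 to 0.20, but with genes of like length centred on 0 all 3 were called lower (-0.34, -0.29 and -0.32). Under that centring, 22 were called lower and 4 higher: RMI2 (-0.95), XRCC3 (-0.65) and RAD50 (0.89) kept their side, and BRCA2 (0.37) was no longer called.

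**Figure D4:**
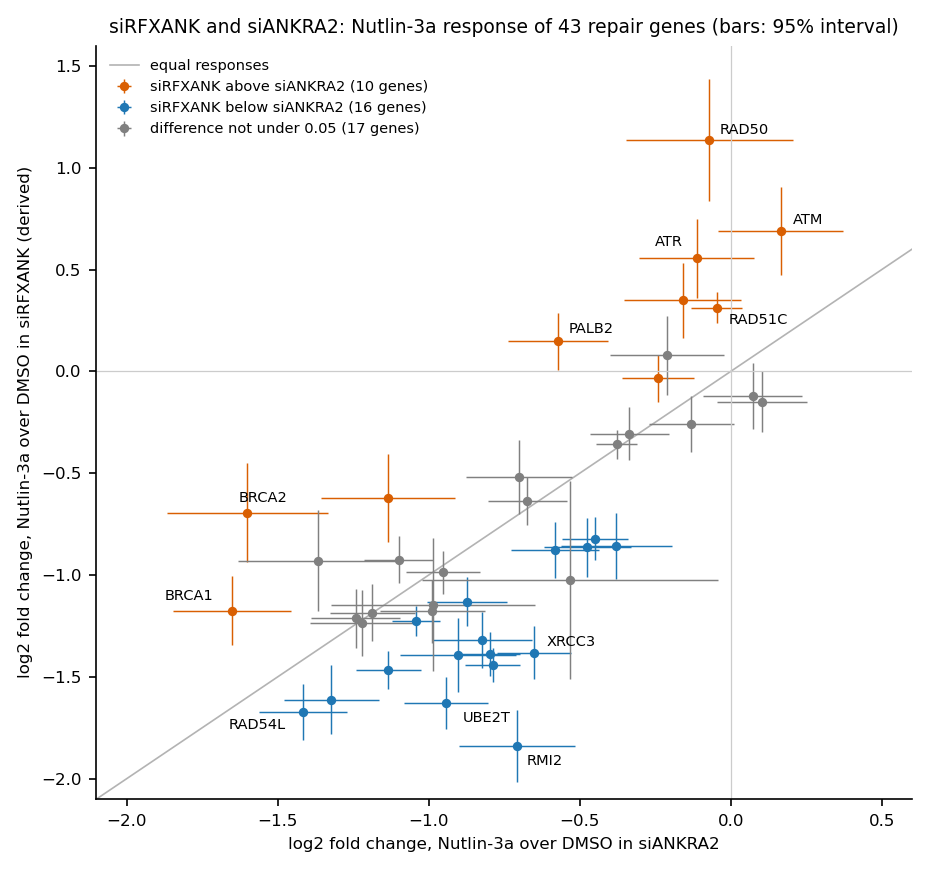
Log2 fold change of Nutlin-3a over DMSO in siRFXANK cells (y axis, derived) against that in siANKRA2 cells (x axis) for the 43 genes, with 95% intervals and the line of equal responses. RMI2, XRCC3 and UBE2T lie below the line, and RAD50, ATM, ATR, PALB2 and BRCA2 above it, in values not centred on coding length.

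The rest of the DNA repair network was described from 5 further gene lists. In siControl cells, where 21.2% of all genes were called lower and 21.9% higher, the counts were as follows. Of 39 further recombination and Fanconi genes, 21 fell and 8 rose (median -0.37). Among those with large falls were DNA2, a resection nuclease (-2.16 ± 0.08), and the strand exchange factors PSMC3IP (-1.96 ± 0.10) and MND1 (-1.89 ± 0.12). Of 13 checkpoint clamp and fork genes, 11 fell and none rose (median -1.20), led by the CHEK1 mediator CLSPN (-2.36 ± 0.06) and the phosphatase CDC25A (-2.27 ± 0.06). Among 15 end joining genes, 9 fell and 1 rose, at a median of -0.37, and among 6 mismatch repair genes 4 fell. Nucleotide excision repair did not move in 1 direction: of 12 genes 4 rose and 2 fell, near the shares of all genes (median 0.05), and the p53 targets XPC (1.05 ± 0.04) and DDB2 (0.91 ± 0.05) rose.

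Most cell cycle genes also fell with Nutlin-3a, but with siANKRA2 the G2 and mitosis genes differed from the 43. All 26 S phase genes fell in siControl cells (median -1.99), 25 of 26 in siANKRA2 (-1.01) and 26 in siRFXANK cells (-1.50). The remaining gene in siANKRA2 cells, PCNA, was called higher (0.17). All 20 genes of G2 and mitosis fell in each response, at medians of -1.86, -1.63 and -1.02. Of all genes, 21.2%, 17% and 22.5% were called lower in the same order. The response difference between siANKRA2 and siControl had a median of 0.83 for S phase genes (26 called higher) and 0.05 for G2 and mitosis genes (9 higher, 2 lower), beside 0.66 for the 43. For siRFXANK these medians were 0.38 (22 higher) and 0.69 (20 higher), beside 0.51. In DMSO, siANKRA2 cells had lower levels of 24 S phase genes (-0.66) and all 20 G2 and mitosis genes (-1.03). In Nutlin-3a, all 20 G2 and mitosis genes were again lower in siANKRA2 than in siControl cells (-0.90). Of the S phase genes, 13 were higher there and 10 lower (0.11), beside a median of 0.06 for the 43. Of all genes, 24.6% were called higher and 25.5% lower in that comparison. RNA was measured over whole cultures, so fewer cells in S and G2 phase and less of these RNAs per cell cannot be told apart, and the part of the cell cycle in the values of the 43 genes was not tested. The p53 targets rose in each: 16 of 16, at medians of 2.06 in siControl, 1.16 in siANKRA2 and 1.76 in siRFXANK cells. CDKN1A rose by 3.27 ± 0.04, 1.42 ± 0.04 and 2.45 ± 0.04, and in DMSO it was already higher after siANKRA2 (2.04 ± 0.04) but not called after siRFXANK (-0.06 ± 0.04).

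**Figure D5:**
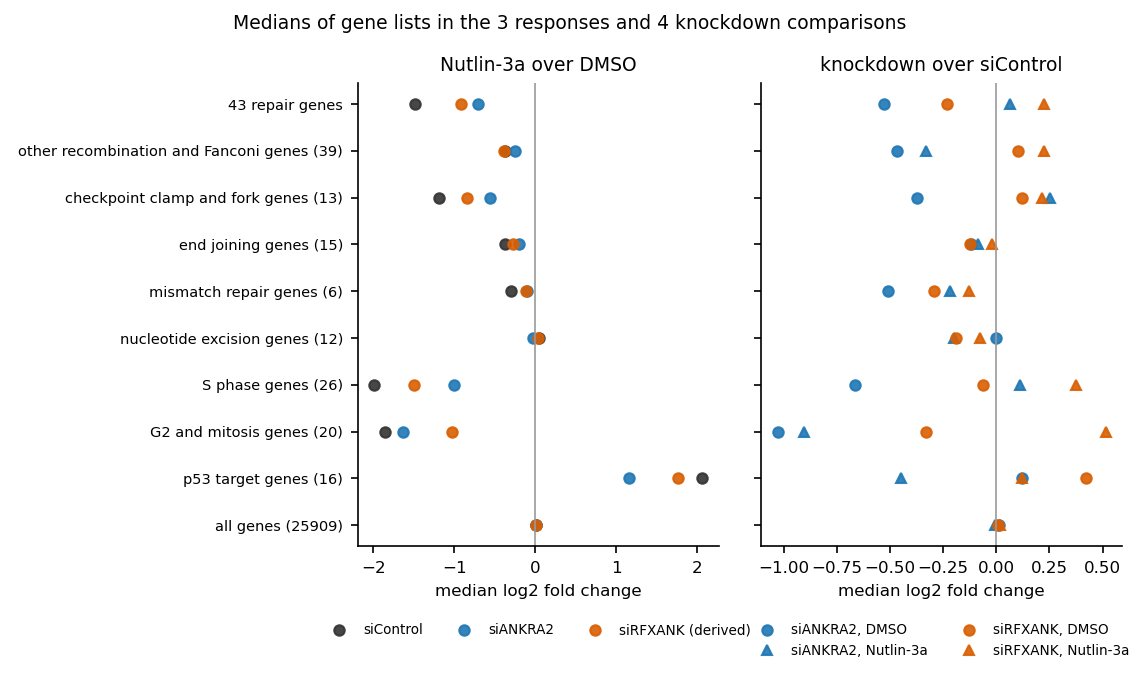
Median log2 fold change (x axis) of the 43 genes and of other gene lists (rows, number of genes tested in parentheses) in the 3 Nutlin-3a responses (left) and the 4 knockdown comparisons (right). The 43 genes and the S phase, G2 and mitosis genes lie left of 0 in each response, and the p53 targets lie right of it.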

How the data were processed

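U2OS RNA-seq libraries (polyadenylated RNA, 18 samples) were compared in 6 tables deposited by the submitters. Per the submitters' processing notes the build was hg38, reads were trimmed with Trimmomatic 0.39 and cutadapt 2.10, counted with featureCounts 1.6.5 and tested with DESeq2 1.20.0 by the submitters. The aligner, the strand setting and the annotation are not given in the sources used here. The deposited mean normalised count is a signal value over all samples. Each deposited log2 fold change has a standard error in log2 units, a Wald score, a p-value and an adjusted p-value, all deposited. These columns are the submitters' own comparisons. They were used, and are named as deposited throughout, because the accompanying paper does not describe this experiment and values per library were not analysed here. The tables list only genes with an adjusted p, and all 43 genes are in each.

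The siControl and siANKRA2 comparisons close as 1 joint fit (largest error 1.4e-14 on the log2 scale). No such sum closes over the 2 siRFXANK comparisons, so that they belong to the same fit was assumed. The siRFXANK response was taken as the siControl response plus siRFXANK over siControl in Nutlin-3a minus the same in DMSO, with the squared standard errors of the 2 siRFXANK tables summed and that of the siControl response subtracted, since siControl cancels. Response differences were tested with a two-sided normal test and adjusted by Benjamini-Hochberg over all genes (Python 3.11.15, scipy 1.17.1). The arithmetic was tested on simulated data. Intervals are 95% normal intervals.

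The 43 genes, the gene lists and the tests were chosen with earlier results of these data known. Full values are given for the 3 highest and 3 lowest called members of each comparison and for the member called against the majority in siControl. Coding lengths, coordinates and shared 31-base stretches come from GENCODE 29, and promoters from RefSeq (GRCh38.p14). Promoters were to be shown for the 3 deepest falls. Those of EXO1 (150 of 150 bases) and RAD51AP1 (92 of 150) lie wholly or mostly in annotated exons and were passed over, and RAD51C was added after its value was seen. Alternatives were a threshold of 0.01, a minimum log2 change of 1, minimum means of 10 and 100, recomputed adjustment, another pair of tables, centring on the median of genes whose mean reaches 100, and, added after the trend was seen, centring on the median in 20 bins of coding length.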

Additional observations from a re-analysis of the deposited data

Results flagged for a closer look

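Each value here is a difference in the Nutlin-3a response between 2 groups of cells, tested by itself with the normal test described for the response differences. Such differences were called for 31 of the 43 genes between siANKRA2 and siControl cells, for 30 between siRFXANK and siControl cells, and for 26 between siRFXANK and siANKRA2 cells. In the same order, the shares of all genes called were 11.4% higher and 12.5% lower, 11.6% and 9.64%, and 17.7% and 14.7%. Between siANKRA2 and siControl cells, RAD54B (1.59), RMI2 (1.18) and EXO1 (1.14) differed most upward and RAD51C (-0.22) was the gene that differed downward. Between siRFXANK and siControl cells, POLQ (1.34), BRCA2 (1.31) and XRCC2 (1.14) differed most. Between siRFXANK and siANKRA2 cells, RMI2 (-1.13), XRCC3 (-0.73) and UBE2T (-0.69) were lower and RAD50 (1.21), BRCA2 (0.91) and PALB2 (0.72) higher. RAD54B, RAD50 and XRCC3 share most 31-base stretches of their longest transcripts with other genes, and several comparisons moved with coding length, as given above. Single samples far from the others could not be looked for, since values per library were not analysed here.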

How the results depend on the processing

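Call counts stayed within 1.5 times of the reported ones at a threshold of 0.01, with minimum means of 10 or 100, with the adjustment recomputed, with the other pair of tables, and with either centring. With a log2 change of at least 1 also required, the count for the siControl response stayed within that range and the others did not: 12 genes for the siANKRA2 response, 20 for siRFXANK, 6, 5 and 2 for the response differences of siANKRA2 and siRFXANK from siControl and of siRFXANK from siANKRA2, 5 and 1 for siANKRA2 over siControl in DMSO and Nutlin-3a, and 4 and 1 for siRFXANK. Shares of all genes with changes of that size were not counted. Centring on genes of like coding length moved the median of the 43 genes to -1.59 in siControl, -1.16 in siRFXANK, 0.35 and -0.25 for the siRFXANK response against siControl and siANKRA2, and -0.44 and -0.12 for siANKRA2 and siRFXANK over siControl in DMSO. Under this centring 9 values that had been called changed sign,, not counting those not called before: SLX4 (-0.16) in the siRFXANK response, BRCA1 (-0.057), SLX4 (-0.025), ATM (-0.0080) and POLQ (-0.021) in siRFXANK against siANKRA2, PARP1 (0.014) in siANKRA2 over siControl in DMSO, and BRCA1 (0.23), SLX4 (0.16) and MSH6 (0.0095) in siRFXANK over siControl in DMSO. For siANKRA2 over siControl in Nutlin-3a it moved the calls from 14 higher and 15 lower to 19 and 11. The alternative's own construction, a shift by length, sets these changes. No paired analysis was possible because the tables hold no values per library, and for the same reason leaving out replicates and a count model were not run. Library depth is unknown, so precision is read from the deposited standard errors alone.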

Other observations

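Of the other 39 recombination and Fanconi genes, 27 were called lower and 4 higher in DMSO after siANKRA2 (median -0.47), against 24.5% and 24.3% of all genes. After siRFXANK in DMSO, 12 were lower and 14 higher (median 0.10), against 21.2% and 20.9% of all genes.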
